A study of Mus musculus with 1 sample.

Results

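Serpins and cystatins are the main families of protein inhibitors that shut down serine proteases and lysosomal cysteine proteases. Their members were taken as every probe set that names exactly 1 gene in the platform's annotation and whose symbol starts with Serpin, or with Cst followed by a digit or by the single letter a or b. This rule gave 49 genes on 66 probe sets, of 18193 measured genes on 34945 such probe sets. There were 40 serpin genes and 9 cystatin genes. The rule reads symbols and not signals, but the families themselves were picked with earlier results of these data known.

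The RNA came from 1 sample of cultured mouse lung cancer cells, labelled KR Primary, a line derived from a KR tumor of the B6/J strain, and was hybridized to 1 Affymetrix 3′ array. The series is described as covering lines from kras tumors, but the labels do not spell out KR, and no treatment, other allele or age is given. The cells were grown in medium with fetal bovine serum. With 1 line, 1 array and no replicate, the values below have no replicate error and no p-value, and no condition is compared with another.

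A probe set gives the brightness of a group of short probes for a transcript, in arbitrary units. Brightness differs between probe sets that see the same amount of RNA, so the signals of different genes do not rank their RNA amounts. Each was therefore set against a background measured on the same array. The background was 126 probe sets of 112 genes for smell, taste, pheromone and hair shaft proteins. Their 95th percentile, 16.8, is called the background threshold and their highest signal, 60.6, the upper bound. A gene was counted by its highest probe set. Of all measured genes, 63.3% were above the threshold and 47.5% above the upper bound. A signal under the threshold does not show that a transcript was absent.

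Serpins trap a protease by offering a loop as bait and then changing shape around it, which inactivates both. Clade A holds the plasma serpins, most of them made by the liver, whereas clade B serpins lack a classical secretion signal and mostly act inside the cell, where they guard it against proteases that leak from granules or lysosomes. Some serpins do not inhibit proteases at all and work as chaperones or hormone carriers. Cystatins block papain-like cysteine proteases such as the cathepsins: stefins do so in the cytosol, and the other cystatins are secreted.

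Of the 49 genes, 14 (28.6%) were above the threshold and 12 (24.5%) above the upper bound, against 63.3% and 47.5% of all measured genes. The median of the genes' highest signals was 8.73, against 48.3 over all genes, a description that also reflects how many probe sets a gene has and how bright they are. Among genes with 1 probe set the medians were 8.59 for members and 15.6 for all genes, both under the threshold. The rule of counting by the highest probe set favours genes with several probe sets, and 36 of the members had only 1. Of these 36, 9 (25.0%) were above the threshold and 7 (19.4%) above the upper bound, against 48.4% and 32.6% of all genes with 1 probe set. Of the 13 members with 2 or more, 5 (38.5%) passed both, against 78.6% and 62.8%. When a gene was counted only if every one of its probe sets passed, 11 members (22.4%) were above the upper bound, against 27.3% of all genes, and 14 (28.6%) above the threshold, against 47.0%.

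Of the 12 genes above the upper bound, 8 were clade B serpins. These were 8 of the 18 measured clade B genes (44.4%). Cystatins passed both in 3 of 9 genes (33.3%). Of 8 serpins of the other clades outside A, 3 passed the threshold and 1 the upper bound. None of 14 clade A genes passed the threshold. No difference between these branches was tested, since genes of 1 array are not replicates.

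**Figure D1:**
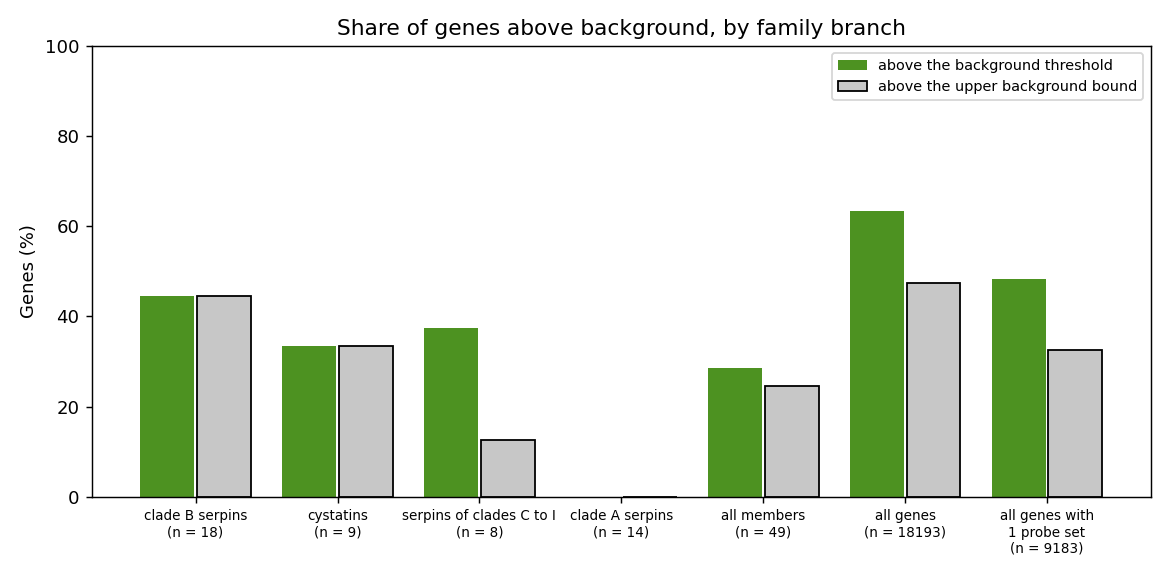
Share of genes, in percent, above the background threshold (green) and above the upper background bound (grey) in each branch, in all 49 members, in all measured genes and in all genes with 1 probe set. Clade B reached 44.4% on both measures and clade A 0 of 14 genes, while all measured genes reached 63.3% and 47.5%.

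Serpinb6a, whose human counterpart inhibits cathepsin G inside leukocytes and other cells, gave 4152 on its only probe set. Its relatives in the same gene cluster differed. Serpinb6b gave 1136 and Serpinb6e 91.4, both above the upper bound, whereas Serpinb6c gave 4.68. The Serpinb6e probe set has an ID ending in _x_at, which marks probes that can take signal from other, similar transcripts, so this signal cannot be assigned to Serpinb6e alone. Whether the other Serpinb6 probe sets also report their relatives was not tested.

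Serpinb2, also known as plasminogen activator inhibitor type 2, is an inhibitor of urokinase and tissue plasminogen activator that is kept largely inside cells. It gave 2000.2. Of the proteases it blocks, Plat, the tissue-type activator, gave 1969.9 and 39.9 on 2 probe sets, and Plau, the urokinase gene, gave 29.2 and 28.4, between the threshold and the upper bound. Plaur, the urokinase receptor on the cell surface, gave 1768. Signal was thus clear for the inhibitor, the receptor and 1 probe set of the tissue-type activator, and weak for urokinase. Plg, the plasminogen that both activators cut, gave 4.85, and Vtn, the plasma protein vitronectin, gave at most 9.79, so neither passed the threshold.

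Serpinb5, called maspin, is an epithelial serpin that does not inhibit proteases. It had 4 probe sets, which gave 753, 329, 326 and 325. All were above the upper bound, and the lower 3, of which 2 have IDs ending in _x_at, lay close together. Epithelial marker genes were also clear in these cells: Krt18 gave 7600.2, its keratin partner Krt8 at most 7422, Krt7, a keratin of simple epithelia, 5723, Cdh1 (E-cadherin) 4069.5 and Epcam 3219 and 265, and all 5 genes of that marker list passed the upper bound. Of 5 keratinocyte markers, which could accompany squamous serpins, all 5 passed the threshold and 2 the upper bound, Ivl (involucrin, a cornified envelope protein) at 438 and 90.0 and Krt5 (a basal keratin) at 78.8. Krt10 gave 55.5. Lor (loricrin) gave 42.3, 16.5 and 11.8, and Krt14 gave 40.6, 20.6 and 4.95, so both passed the threshold on only some of their probe sets. Over all measured genes 63.3% passed the threshold and 47.5% the upper bound. How the keratinocyte marker signals relate to the serpin values was not tested.

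Serpinb9, the mouse inhibitor of granzyme B that protects cytotoxic lymphocytes and other cells from leaked granzyme, gave 361 and 45.9. The first of these was above the upper bound and the other only above the threshold, a 7.85-fold gap between probe sets of the same gene. Serpinb9b, a neighbouring relative, gave 580.4. The further relatives Serpinb9c, Serpinb9d and Serpinb9g gave 6.47, 1.88 and 1.31 at most and were not above the threshold. Gzmb, the granzyme B gene itself, gave 22.1, between the threshold and the upper bound. All 5 measured leukocyte markers were under the threshold, from Cd3e at 3.34 to Adgre1 at 15.6, with Ptprc at most 11.5, Lyz2 at 11.3 and Itgam at 4.87.

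Serpinb8, whose human counterpart inhibits the processing protease furin in biochemical assays, gave 145 and 72.1, both above the upper bound. Furin gave 269.8.

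The other 10 clade B genes were not above the threshold, and their 13 probe sets ran from 0.349 to 15.6. Serpinb1a, the inhibitor of neutrophil elastase, gave 4.21 and 0.349, and its relative Serpinb1b gave 8.01. Serpinb3a, the mouse relative of human squamous cell carcinoma antigen, gave 8.35, Serpinb7 gave 6.26, and Serpinb12 gave 7.42 and 1.18. Serpinb11 at 15.6 lay just under the threshold.

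**Figure D2:**
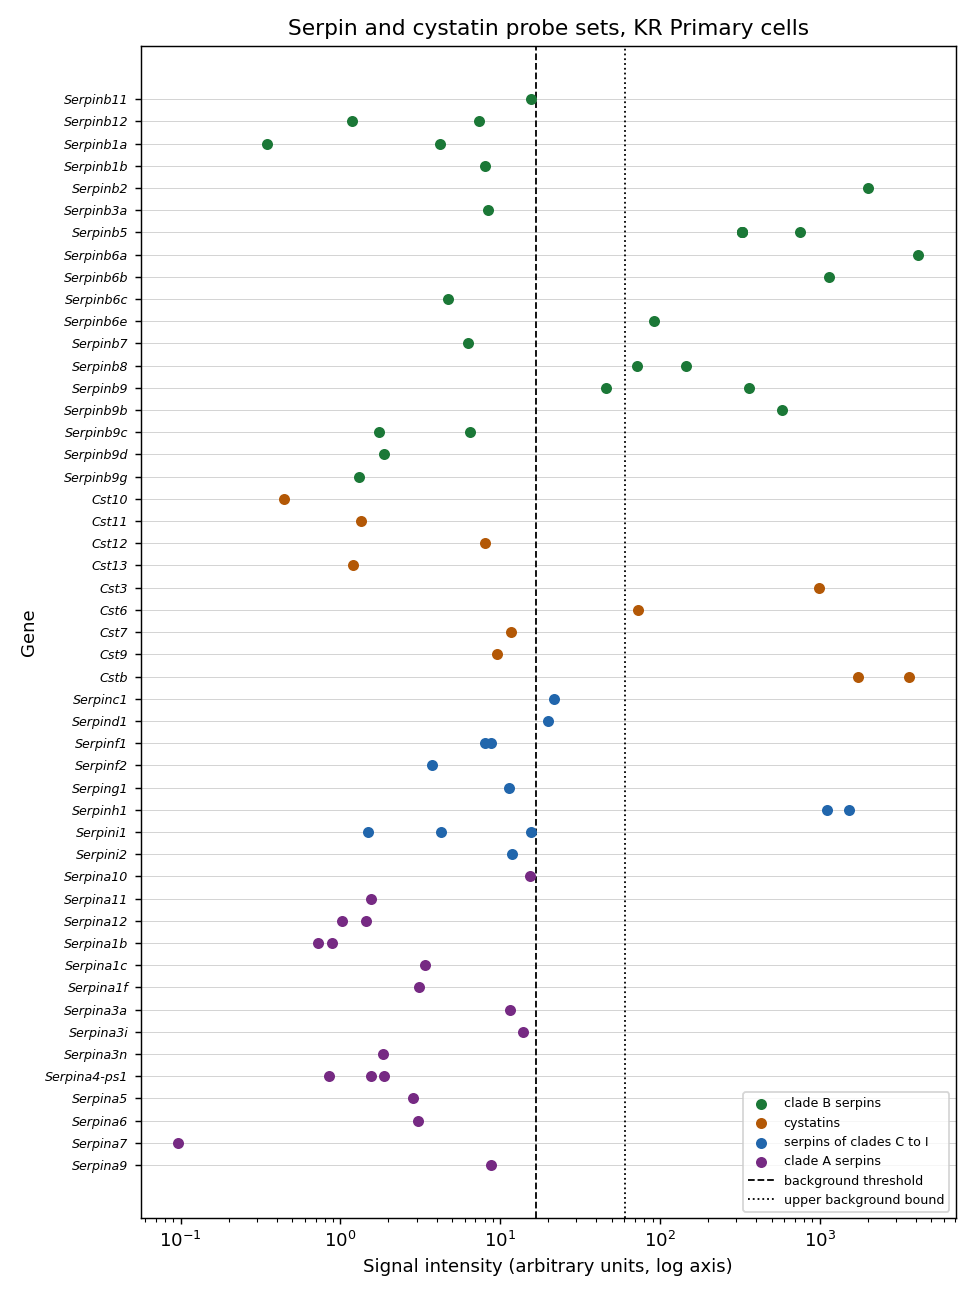
Signal intensity (arbitrary units, log axis) of each of the 66 probe sets, 1 point each, for the 49 genes in rows, coloured by branch; the dashed line is the background threshold (16.8) and the dotted line the upper bound (60.6). A point beyond the dotted line is seen for 12 genes, Serpinc1 and Serpind1 lie between both, and all clade A points are left of both.

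Neighbouring genes fell on different sides of the threshold. Clade B genes lie in clusters on chromosomes 1 and 13 (RefSeq, assembly GRCm38.p6, used here only for the order of genes). On chromosome 1, 3 of 7 measured genes passed the upper bound: Serpinb5, the first in order, and Serpinb2 and Serpinb8, the last pair. The 4 measured genes between Serpinb5 and Serpinb2, namely Serpinb12, Serpinb3a, Serpinb11 and Serpinb7, did not pass the threshold. On chromosome 13, 5 of 11 measured genes passed it. Serpinb1a, at the first position, did not. Serpinb6b, Serpinb9 and Serpinb9b follow each other there, then Serpinb1b, Serpinb9c, Serpinb9d and Serpinb9g were under the threshold, and Serpinb6e and Serpinb6a, separated by Serpinb6c, were above it. Some family genes in these intervals were not analysed here.

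**Figure D3:**
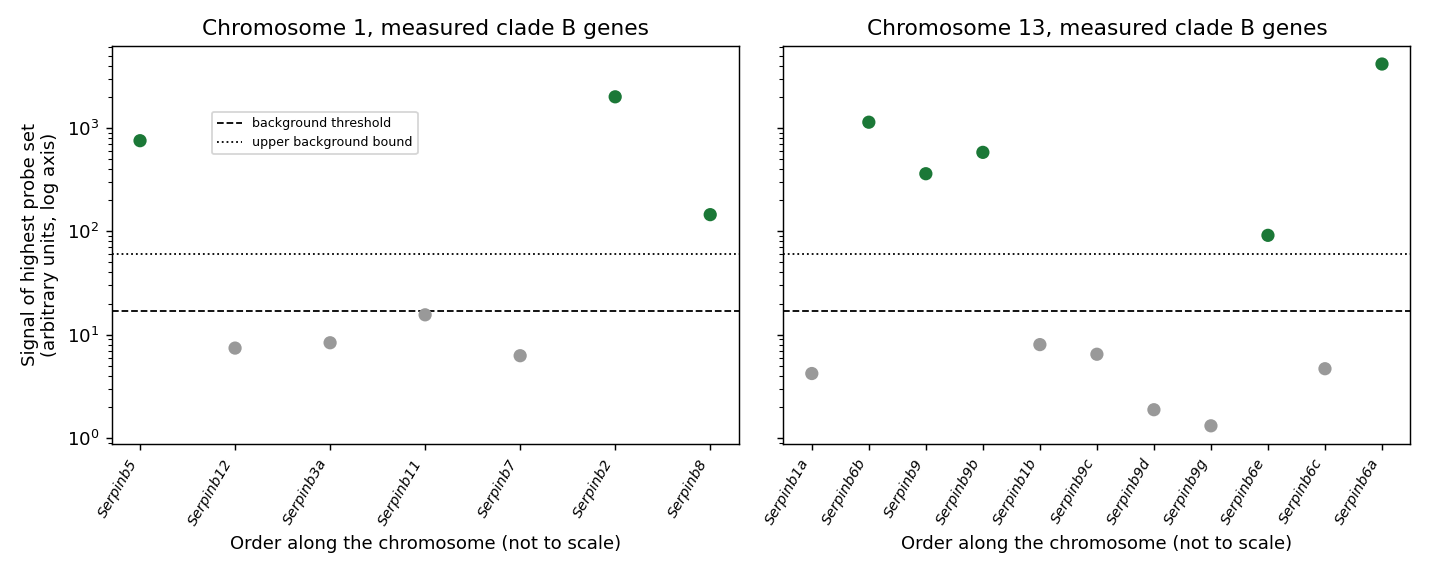
Signal of the highest probe set (arbitrary units, log axis) of the measured clade B genes in their order along chromosome 1 (7 genes, left) and chromosome 13 (11 genes, right); green points are above the upper bound and grey points are not, and spacing is not to scale. Genes with signal from 91.4 to 4152 stand beside relatives with signal from 1.31 to 15.6.

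Serpinh1, known as HSP47, is a chaperone of the endoplasmic reticulum that binds newly made collagen and inhibits no protease. It gave 1529 and, on a probe set with an ID ending in _x_at, 1116, both well above the upper bound. Its clients and the enzymes that modify them were measured in 15 genes, of which 12 passed the threshold and 9 the upper bound. Over all measured genes the shares were 63.3% and 47.5%. Most of the 15 had 2 or more probe sets, and all such genes on the array passed in 78.6% and 62.8%. The others had 1, and all genes with 1 probe set passed in 48.4% and 32.6%. The counts for the 15 genes were near those of genes with several probe sets. No share was computed for a like mix of both kinds. P4hb, a subunit of the collagen prolyl hydroxylase, gave 2938, and the basement membrane collagens Col4a1 and Col4a2 gave 826 and 631 on their highest probe sets. The fibrillar collagens of fibroblasts gave little: Col1a1 at most 10.4, Col3a1 at most 6.998, and Col1a2 19.3 on 1 of 3 probe sets above the threshold. Col6a1 gave 9.89. Of 5 fibroblast markers 1 passed the threshold and none the upper bound, with Pdgfra giving at most 15.9 and Dcn at most 8.86.

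Serpinc1, the plasma inhibitor antithrombin, gave 21.7, and Serpind1, heparin cofactor II, gave 19.96. Both block thrombin, are made by the liver, and lay only just above the threshold. Of the 126 background probe sets, 7 also passed the threshold, the highest at 60.6. F2, which encodes prothrombin, gave 9.69 and was not above the threshold. Of 14 measured coagulation genes 7 (50.0%) passed the threshold and 5 (35.7%) the upper bound, against 63.3% and 47.5% of all measured genes. Most of the 14 had 1 probe set, and all such genes on the array passed in 48.4% and 32.6%. The counts were thus near those of genes with 1 probe set. Of the 5, F2r, a thrombin receptor, gave 5407 and 2675, and Procr, the receptor of protein C, 3278. F3, the tissue factor that starts coagulation, gave 1429.7, Thbd 689 and Proc, the protease protein C, 91.2. F11 and F12 gave 1.53 and 0.780.

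The remaining serpins of clades F, G and I were under the threshold, from 1.499 to 15.7 on 8 probe sets. Serpinf1, the anti-angiogenic factor PEDF, gave 8.73 and 8.08, and Serpinf2, the plasmin inhibitor alpha-2-antiplasmin, gave 3.73. Serping1, the C1 inhibitor of complement, gave 11.4. Of its targets, C1ra and C1s1 gave 1.34 and 5.93. Of 7 complement genes measured, 1 (14.3%) passed the threshold and the upper bound, against 63.3% and 47.5% of all measured genes. This was Masp1, a protease of the lectin pathway. It gave 262, 199, 75.1, 16.7 and 7.08, so 3 of its 5 probe sets passed both. Its relative Masp2 gave at most 12.4, and C1qa, a chain of C1q, gave 0.779. Serpini1, the neuronal inhibitor neuroserpin, gave 15.7, 4.29 and 1.499, and Serpini2, a pancreatic serpin, gave 11.9.

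All 18 clade A probe sets were under the threshold, from 0.0963 to 15.4. The alpha-1-antitrypsin genes Serpina1b and Serpina1c gave at most 0.886 and 3.38. Serpina3n, an inducible antichymotrypsin of mouse tissues, gave 1.84. The hormone carriers Serpina6 (corticosteroid-binding globulin) and Serpina7 (thyroxine-binding globulin) gave 3.06 and 0.0963, and Serpina5, the protein C inhibitor, gave 2.86. Serpina10, which acts on activated coagulation factor X with protein Z, gave 15.4 and was the nearest to the threshold. The others were Serpina1f, Serpina3a, Serpina3i, Serpina4-ps1, Serpina9, Serpina11 and Serpina12, at 1.44 to 14.0 on their highest probe sets. All 7 hepatocyte markers were under the threshold too, with Apoa2 at 15.9, Ttr at most 15.6, Cyp2e1 at 14.2, Alb at 9.17, Apoa1 at most 4.70 and Fgb at 0.704. Most clade A genes lie in 1 cluster on chromosome 12, where 13 were measured.

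Cystatins gave signal in 3 genes. Cstb, the cytosolic stefin B that blocks cathepsins leaking from lysosomes, read 3622 on one probe set and 1739 on the other. Cst3, the secreted cystatin C found in most body fluids, gave 991. Cst6, a secreted cystatin that in human skin blocks cathepsin L-like proteases and legumain, gave 73.0, not far above the upper bound. The other 6 were under the threshold. Cst7, the leukocyte cystatin F, gave 11.6, and Cst9, Cst12, Cst11 and Cst13, known mainly from the male reproductive tract, gave 9.50, 8.08, 1.36 and 1.19. Cst10, a cartilage cystatin, gave 0.446. Of the 7 measured cystatin genes on chromosome 2, Cst3 alone passed the threshold.

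The cysteine proteases that cystatins block gave signal in most cases. Of 11 cathepsin and legumain genes, 9 (81.8%) passed the threshold and 7 (63.6%) the upper bound, against 63.3% and 47.5% of all measured genes. Most of the 11 had 2 or more probe sets, and all such genes on the array passed in 78.6% and 62.8%. The others had 1, and all genes with 1 probe set passed in 48.4% and 32.6%. The counts for this list were near those of genes with several probe sets. A share for a like mix of both kinds was not computed. Ctsl gave 5386 and 44.4, and Ctsz gave 3465, 1193 and 1021. Ctsb, a broadly expressed lysosomal protease, gave 1852, 1241, 41.9, 29.4 and 29.3, so that 2 of its 5 probe sets passed the upper bound. Ctsh gave 1449.6 and 918, and Lgmn, the asparagine-cutting legumain, 347. The cathepsins of antigen-presenting cells and osteoclasts, Ctss at 7.05 and Ctsk at 14.1, were under the threshold.

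The leukocyte serine proteases, some of which clade B serpins are known to block, gave almost no signal. Of 12 leukocyte serine protease genes, 1 (8.33%) passed the threshold, Gzmb, and none the upper bound. Over all measured genes the shares were 63.3% and 47.5%, and over genes with 1 probe set 48.4% and 32.6%. Elane, neutrophil elastase, gave 3.54, Ctsg, cathepsin G, 3.53, Gzmm 15.4, Gzma 15.3 and Gzmc 0.742. Kallikreins passed the threshold in 4 of 12 genes and the upper bound in 3, namely Klk6 at 128, Klk8 at 105 and Klk1 at 90.8 on 1 of 4 probe sets, with Klkb1 at 1.72 and Klk12 at 1.23. Among 12 membrane and secreted serine proteases, 9 passed the threshold and 7 the upper bound. Prss22, an epithelial tryptase, gave 2544, St14 (matriptase, an epithelial surface protease) 1002 and Hgfac, the activator of hepatocyte growth factor, 987. Tmprss13 and Tmprss11d gave 7.34 and 0.345.

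Inhibitors of other families were also measured. Of 23 such genes, 15 (65.2%) passed the threshold and 9 (39.1%) the upper bound. Wfdc2 gave 5319.8, Pebp1, better known as the RAF kinase inhibitor protein, 3736 and 2009, and Spint2, a membrane-bound Kunitz inhibitor of epithelial serine proteases, 3667 and 2406. Wfdc18 gave 3.05 and Spink5, an inhibitor of skin kallikreins, 2.07. Among 8 measured genes of stefin A, of cystatin-domain proteins and of the angiotensinogen serpin, which the rule leaves out, 1 passed the threshold, Fetub at 31.1, and none the upper bound. Hrg and Kng1, plasma proteins made by the liver, gave at most 13.6 and 12.03, and Agt and Ahsg gave 1.55 and 0.633. Of 6 caspase and calpain genes 4 passed both, with Capn2 at 1807, Casp8 at 856 and Capn1 at 566, and with Casp1 and Casp4 at 6.80 and 0.860. In the plasminogen list, 5 of 8 genes passed the threshold and 4 the upper bound, S100a10, a surface partner of plasminogen, giving 4984. Over all 11 lists, 68 of 128 measured genes (53.1%) passed the threshold and 49 (38.3%) the upper bound, against 63.3% and 47.5% of all genes.

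**Figure D4:**
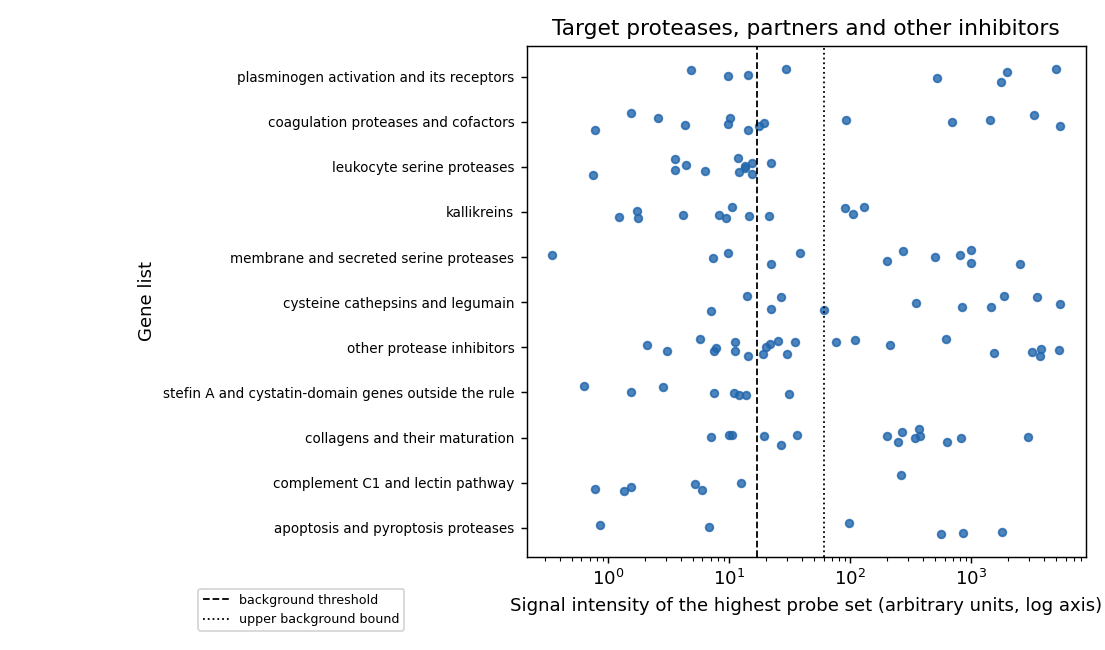
Signal of the highest probe set (arbitrary units, log axis) of each measured gene, 1 point per gene, in 11 lists of target proteases, partners and other inhibitors; lines are the background threshold (dashed) and the upper bound (dotted), and points are spread vertically only for legibility. Cathepsins and legumain pass the upper bound in 7 of 11 genes, whereas no leukocyte serine protease does. Of all measured genes 47.5% pass it, and 62.8% of those with 2 or more probe sets.

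Probe sets of the same member gene gave like calls. In none of the 13 members with 2 or more probe sets did the probe sets fall on both sides of the threshold, against 32.9% of the 9010 such genes on the array. Only 5 of the 13 were above the threshold, and the others had all their probe sets at background level. Among these others, probe sets still differed 12.1-fold for Serpinb1a and 10.5-fold for Serpini1. On the log2 scale, the spread within a gene had a median SD of 0.71 in the members and 1.45 over all genes. Serpinb9 was the only member whose probe sets fell on both sides of the upper bound. The members just above the threshold were Serpind1 and Serpinc1, and those just under it Serpini1 at 15.7, Serpinb11 at 15.6 and Serpina10 at 15.4.

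The lung labels were checked on the same array. Of 6 lung epithelium markers, 2 passed the threshold and none the upper bound: Sftpb at 28.9 and Sftpc at 21.1 on 1 of 2 probe sets. Nkx2-1, which specifies lung epithelium, gave 7.66, Ager, of alveolar type I cells, at most 12.4, and Scgb1a1, of club cells, 1.38. The label of lung cancer cells thus rests on the submitters' description, while the epithelial markers were clear. Mast cell markers passed the threshold in 0 of 3 genes, with Cpa3 at 14.3, Cma1 at 11.8 and Kit at most 9.59. Endothelial markers passed it in 2 of 3, Kdr at 30.3 and Cdh5 at 17.4 on 1 of 2 probe sets, with Pecam1 at 14.3. Platelet markers passed it in 2 of 3, Itga2b at 53.5 and Pf4 at 49.0, with Gp9 at 13.4. None of these was above the upper bound. Over all measured genes 63.3% passed the threshold and 47.5% the upper bound, so 2 of 3 was near the share of all genes above the threshold.

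The sequence before the start of transcription was examined in the RefSeq promoter table (GRCm38.p6), which matched 40 of the 49 members. Cstb and Cst6 were not among them. Where a gene had several starts, the first listed was used, and the window was the 250 bases before the start. The 6 windows printed here were chosen after their values were seen and are shown as examples: 5 members with signal whose windows hold at least 1 of the motifs below, and a clade A gene without signal. They lie at chr1:107511173-107511422, plus strand for Serpinb2, chr1:106860925-106861174, plus strand for Serpinb5, chr13:34002795-34003044, minus strand for Serpinb6a, chr7:99353240-99353489, minus strand for Serpinh1, chr2:148875513-148875762, minus strand for Cst3 and chr12:103738190-103738439, minus strand for Serpina1b. Each is written 5′ to 3′ on the strand of its gene and ends at the base before the start. Capitals mark matches, on either strand, to TATAAA (the core TATA box), CCAAT (a common box of vertebrate promoters), GGGCGG (the GC box), TGANTCA (a looser pattern that includes the AP-1 core TGACTCA) and GAANNTTC (a pair of heat shock units facing each other). No marked matches overlap.
Serpinb2: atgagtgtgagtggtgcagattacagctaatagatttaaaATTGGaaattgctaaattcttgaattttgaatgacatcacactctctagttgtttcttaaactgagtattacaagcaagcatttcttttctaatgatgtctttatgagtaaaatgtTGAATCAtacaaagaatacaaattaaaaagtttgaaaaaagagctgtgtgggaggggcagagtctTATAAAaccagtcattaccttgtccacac
Serpinb5: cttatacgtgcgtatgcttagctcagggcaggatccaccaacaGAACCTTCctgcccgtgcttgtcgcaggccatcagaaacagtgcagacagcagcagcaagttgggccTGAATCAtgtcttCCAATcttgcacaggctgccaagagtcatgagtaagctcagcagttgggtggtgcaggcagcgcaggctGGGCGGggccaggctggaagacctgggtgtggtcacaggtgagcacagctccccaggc
Serpinb6a: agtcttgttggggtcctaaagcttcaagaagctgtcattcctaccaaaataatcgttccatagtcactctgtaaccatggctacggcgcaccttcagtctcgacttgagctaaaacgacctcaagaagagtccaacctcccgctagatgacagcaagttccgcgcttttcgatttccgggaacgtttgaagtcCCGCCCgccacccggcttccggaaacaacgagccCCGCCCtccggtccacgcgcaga
Serpinh1: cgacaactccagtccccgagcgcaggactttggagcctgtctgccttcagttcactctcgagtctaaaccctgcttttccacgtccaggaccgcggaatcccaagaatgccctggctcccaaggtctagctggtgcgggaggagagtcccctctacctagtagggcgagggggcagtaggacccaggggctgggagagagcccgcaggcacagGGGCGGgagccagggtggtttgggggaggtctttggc
Cst3: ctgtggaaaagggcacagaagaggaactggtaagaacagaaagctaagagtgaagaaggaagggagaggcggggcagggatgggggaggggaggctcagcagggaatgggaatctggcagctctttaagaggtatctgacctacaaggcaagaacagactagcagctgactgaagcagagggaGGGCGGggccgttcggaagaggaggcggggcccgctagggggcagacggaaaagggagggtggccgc
Serpina1b: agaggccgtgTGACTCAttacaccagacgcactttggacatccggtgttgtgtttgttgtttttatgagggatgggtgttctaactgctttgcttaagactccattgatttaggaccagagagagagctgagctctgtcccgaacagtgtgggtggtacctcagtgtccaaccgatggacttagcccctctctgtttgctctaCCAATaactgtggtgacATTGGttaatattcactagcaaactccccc

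These windows differ in kind. Serpinb2 has TATAAA from 29 to 24 bases before its start, no CG dinucleotide and 32.4% G and C. Serpinb6a has 20 CG dinucleotides, 54.4% G and C and a pair of GC boxes on the opposite strand. Serpinh1 and Cst3 have 63.6% and 59.6% G and C, with 11 and 8 CG dinucleotides and 1 GC box each. Serpinb5 holds a GC box, a CCAAT box, a TGANTCA match and a heat shock pair. The TGANTCA matches of Serpinb2 and Serpinb5 are not the AP-1 core, whereas that of Serpina1b is. Serpina1b also holds 2 CCAAT matches but no GC box.

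A GC box was present in 5 of the 10 matched members above the upper bound (50.0%) and in 2 of the 28 not above the threshold (7.14%). Over all measured genes the shares were 63.0% above the upper bound and 31.4% not above the threshold, and over all 27025 promoters 32.9%. TGANTCA was present in 3 of 10 (30.0%) and 6 of 28 (21.4%) members, against 4.14% and 7.57% of all measured genes in the same classes and 6.87% of all promoters. The 3 members with signal were Serpinb2, Serpinb5 and Serpinb8. The AP-1 core itself, TGACTCA on either strand, whose matches are all among those of the looser pattern, was present in 1 of 10 (10.0%), Serpinb8, and 4 of 28 (14.3%), against 3.13% and 4.80% of all measured genes and 4.43% of all promoters. Of the 10 members, 3 held none of the 5 marked motifs, namely Serpinb6e, Serpinb9 and Serpinb9b. TATAAA was present in 1 of 10 (10.0%) and 7 of 28 (25.0%), against 5.76% and 13.9%. CCAAT was present in 2 of 10 (20%) and 10 of 28 (35.7%), against 36.8% and 34.4%. GAANNTTC was present in 1 of 10 (10.0%) and 2 of 28 (7.14%), against 4.46% and 6.89%. The median number of CG dinucleotides was 3 in members above the upper bound and 3 in members not above the threshold, against 17 and 5 in all measured genes of these classes. Matches are letters in a window and do not show that a factor binds there. Family members arose by duplication and share sequence, so their promoters are not independent of each other.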

How the data were processed

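Total RNA of 1 sample was labelled with biotin and hybridized to an Affymetrix 3′ array, per the labels' protocols. For each probe set the authors deposited 1 linear signal intensity. The submitters' processing notes name Affymetrix Expression Console as the tool. Its algorithm and version, any background correction and the scaling are unknown (not given in the sources used here). Intensities ran from 0.0591 to 8928 with a median of 22.5. Depth does not apply to an array, and the single array limits the precision.

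Of 45101 probe sets, 34945 could be tied to 1 gene, 932 to several and 9160 to none in the annotation used. The 64 controls and the last 2 kinds were left out. Symbols were updated by gene ID with RefSeq (GRCm38.p6) for 34741 probe sets. Background, threshold, upper bound and gene calls were as given above. Every member is accounted for; of each other list the 3 highest, the 2 lowest and fixed target genes were named, and genes beyond that rule were chosen after their values were seen. Members, lists and thresholds were chosen with earlier results of these data known. No test between groups was possible. Alternatives changed the percentile, the background set, the probe sets admitted and the combining rule. Python 3.11.15, numpy 2.4.6, pandas 2.3.3 and matplotlib 3.10.9 were used.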

Additional observations from a re-analysis of the deposited data

How the results depend on the processing

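The count of members above the threshold was 14 and lay between 12 and 17 under the alternatives, while the share of all genes, 63.3%, lay between 47.0% and 66.7%. The count above the upper bound was 12 and lay between 11 and 14, while the share of all genes, 47.5%, lay between 27.3% and 60.8%. The 14 and the 60.8% came with receptor genes alone as background, where the upper bound was 19.2 and Serpinc1 and Serpind1 also passed it. Other listed genes and markers with signals between 19.2 and 60.6 would pass this lower bound too. Among them are Sftpb, Sftpc, Gzmb, Plau, Kdr, Itga2b and Pf4. The 17 was reached with the threshold at the 90th percentile and with receptor genes alone as background. With the threshold at the 99th percentile (36.9), Serpinc1 and Serpind1 fell below it, at -0.76 and -0.89 on the log2 scale relative to the threshold. Without probe sets whose ID ends in _x_at or _s_at, 6 members could not be measured, among them Serpinb6e, and 11 of the other 43 were above the upper bound. Counting a gene only if every probe set passed left 14 (28.6%) above the threshold and 11 (22.4%) above the upper bound, against 47.0% and 27.3% of all genes, Serpinb9 being lost from the second count. Taking the upper bound at the second highest background probe set (42.2), an alternative added after seeing the data, gave 12. The count over the lists of proteases, partners and other inhibitors was 68 of 128 (53.1%), against 63.3% of all genes, and lay between 50 and 74. The 50 of 128 came with the threshold at the 99th percentile, where 52.8% of all genes passed. The 74 of 128 came with the 90th percentile, where 66.7% of all genes passed. No paired analysis was possible because there is 1 sample. Signals near the threshold cannot be told from background.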

Other observations

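Probe sets that name several genes were left out of the counts above. Of these, 3 name members of the families, and none was above the background threshold: a probe set shared by Serpinb9e, Serpinb9f, Serpinb9g and Serpinb9h gave 10.5, one shared by Serpina1a and Serpina1d gave 1.05, and one shared by Serpina1b, Serpina1c and Serpina1e gave 2.99. They add no signal for the alpha-1-antitrypsin genes or for the more distant Serpinb9 relatives.

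Genes with symbols like those of stefins and cystatins, but just outside the rule, gave no signal above the threshold either. Csta1, a stefin A gene, gave 8.09, Stfa2l1 gave 7.45 and Stfa3 gave 2.85. Cstdc1 and Cstdc2, which carry cystatin domains, gave 13.1 and 13.04. Cstad, which was included for its symbol only, gave 0.398. Among stefins, signal was therefore seen for Cstb and not for the stefin A genes measured here.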
